A study of Gallus gallus with 8 samples.

Results

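The comparison sets ectoderm that had been cultured, on 4 arrays, against freshly dissected ectoderm that had not, on the other 4 arrays, and so takes in all 8 arrays of the study. The paper reports that tissue was separated with enzyme and by hand, and that all samples were frozen before RNA was isolated. The cultured arm holds chick trigeminal ectoderm, taken from stage 8 embryos and kept for 18 h in collagen gels in defined medium, on 2 arrays with 50 ng/ml FGF2 (fibroblast growth factor 2) and on 2 arrays without FGF2. The fresh arm holds otic ectoderm, the tissue that forms the inner ear, and lateral ectoderm, both from stage 10 embryos, on 2 arrays each. About 80 dissected pieces were pooled for every array, and their RNA was amplified in 2 rounds. Every cultured array is also trigeminal and was dissected at the earlier stage, so that culture, stage at dissection and axial region cannot be told apart in any difference given here. The cultured pieces were also 18 h past dissection when collected, so age at collection is a further difference that cannot be told apart. FGF2 was present on 2 of the 4 cultured arrays and on no fresh array, and otic ectoderm makes up 2 of the 4 fresh arrays and no cultured array.

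Cranial ectoderm of this age gives rise to epidermis and to the sensory placodes, thickened patches that form the nose, the lens, the inner ear and cranial sensory ganglia. Transcription factors of the head such as PAX6 and SIX3 mark its rostral part, and Hox genes, collinear along their clusters, mark the hindbrain and everything caudal to it. Retinoic acid, made from vitamin A by retinaldehyde dehydrogenases, is a caudal signal in the early embryo and is later made in the eye and nose as well. The ectoderm is a thin sheet over mesoderm, blood vessels and foregut endoderm, and these tissues are the likely neighbours in a dissected piece.

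Each probe set has 1 deposited value per array, a linear intensity in arbitrary units. Array medians lay between 27.6 and 29.5 in the cultured arrays and between 25.6 and 31.7 in the fresh arrays, and replicate arrays correlated over all probe sets with r between 0.914 and 0.933. A value near 30 therefore marks the middle of all probe sets, most of which see little RNA. Values under 1 were set to 1 and log2 was taken. The cultured and fresh means were then compared with limma over 38439 probe sets, which name 13009 genes, with p-values adjusted over the whole table by the Benjamini-Hochberg method. Differences are log2 of cultured over fresh. Intensities are given in the order FGF2-treated, untreated, otic and lateral, with 2 arrays each.

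At an adjusted p under 0.05, 120 probe sets (81 genes) were higher in cultured ectoderm, which is 0.312% of those tested, and 78 (60 genes) were lower, which is 0.203%. All 4 cultured arrays lay above all 4 fresh arrays in 1424 probe sets (3.7%, 873 genes) and below them in 1490 (3.88%, 994 genes). Together these are 1852 genes, some with probe sets in both directions. Most of these gaps were narrow. Counting values under 32 as 32, the nearest arrays of the arms stood at least 2-fold apart in 88 genes in the higher direction and 65 in the lower, at least 4-fold apart in 29 and 18, and at least 8-fold apart in 12 and 1. The median difference over all genes was 0.02, so neither arm was brighter as a whole. When the prior variance of limma was allowed to follow the intensity, 519 probe sets (1.35%) were higher and 426 (1.11%) lower. Leaving out any single array removed all calls at an adjusted p under 0.05, except that 18 higher and 2 lower probe sets stayed without otic replicate 2 and 7 higher and 3 lower without untreated replicate 1.

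**Figure D1:**
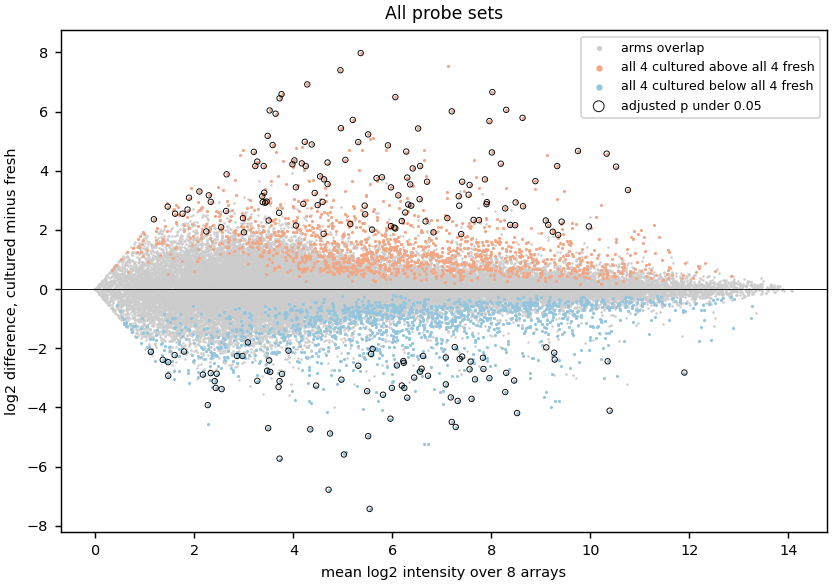
Each point is a probe set, with its mean log2 intensity over the 8 arrays on the horizontal axis and the log2 difference, cultured minus fresh, on the vertical axis; orange and light blue points have all 4 cultured arrays above or below all 4 fresh arrays, and black rings mark an adjusted p under 0.05. There are 120 ringed points above 0 and 78 below it, and some points with a larger difference at a similar level are not ringed.

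Among the genes that rose, the widest gaps between arms were those of PAX6 and SIX3, transcription factors of the rostral head, followed by the enzyme ALDH1A3, the actin-severing protein SCIN and the transcription factor LHX9. Genes of widest gap were picked only where the arms did not overlap, so their lack of overlap is a condition and not a further result. PAX6, a paired homeobox factor required for the eye and nose, had intensities of 1672, 1838, 3588 and 4169 in cultured ectoderm against 19.2, 44.3, 13.4 and 38.5 in fresh ectoderm. Every cultured array was thus far above, and every fresh array near, the middle of the array, and the log2 difference was 6.66 (standard error 0.45, adjusted p = 0.0154). SIX3, a factor of the forebrain and eye, read 1179, 968, 1540.5 and 1119.8 in the cultured arrays against 9.5, 13.8, 21 and 41.3 in the fresh ones. Its difference was 6.01 (standard error 0.33, adjusted p = 0.00697). LHX9, a LIM homeobox factor of the forebrain and limb, stood at 932, 381, 399.6 and 1278 in cultured ectoderm against 6.1, 0.7, 7.4 and 0.5 in fresh ectoderm. Fresh values this low leave the size of its difference, 7.98 (standard error 0.91, adjusted p = 0.0383), uncertain, and with 32 added to every value before the log2 it was 4.28. Of 4 other LHX9 probe sets, all were higher in the cultured arm, by 0.59 to 6.59.

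Of the 19 genes in a list of anterior patterning factors, 15 were measured, and 3 of them (PAX6, SIX3 and SIX6) rose while 0 fell. Over all genes, taking the brightest probe set of each, 0.507% were called higher and 0.331% lower. All cultured arrays lay above all fresh arrays for 7 of the 15 and below for 0, beside 5.01% and 4.94% of all genes, and the median difference was 1.89 beside 0.02 over all genes. These shares over all genes are the background for every list below. The lists were chosen with earlier results of these data known, so their counts are descriptions and no separate support. PAX6 and SIX3 were also already picked as genes of widest gap. SIX6, a factor of eye and pituitary, read 65.5, 28.5, 22.7 and 21 in cultured ectoderm against 6, 4.1, 3.5 and 2.8 in fresh ectoderm, with a difference of 2.96 (standard error 0.35, adjusted p = 0.0403). Most of these values lie below the array middle, so this is a faint signal, and with 32 added the difference was 0.83. ZIC1, a zinc finger factor of neural border and head, gave 2008, 1607, 1410.5 and 2994 in the cultured arrays and 93.1, 4, 1.3 and 22.9 in the fresh ones. That is a wider separation than in SIX6, yet the fresh arrays scattered so much that its difference of 7.55 (standard error 1.26) had an adjusted p of 0.0744. EN1, a homeobox factor of the midbrain-hindbrain boundary, had 183, 229.5, 104 and 253 in cultured and 29, 11.9, 18.3 and 6.9 in fresh ectoderm (3.66, adjusted p = 0.0524). SP8, a zinc finger factor of the rostral head, ranged over 318 to 1309.6 in the cultured arrays and 14.5 to 206 in the fresh arrays, with the otic arrays above the lateral ones (3.42, adjusted p = 0.0573). ZIC1, EN1 and SP8 did not pass the test, although their arms did not overlap. PAX3, the other gene apart, was dim, and the remaining 8 members overlapped between arms. Among these the homeobox factor OTX2 was bright, at 1106 to 3307 in cultured ectoderm (2.43, adjusted p = 0.14). It overlapped through the otic arrays, at 1336 to 1575, whereas the lateral arrays read 65.3 to 271.

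The caudal end of the axis ran the other way. HOXB1, a Hox gene of the hindbrain, had 31.9, 28.5, 49.4 and 20.6 in cultured ectoderm against 530.4, 1322, 488 and 692 in fresh ectoderm. Cultured arrays were at the array middle while otic and lateral arrays were alike and well above it, and the difference was -4.49 (standard error 0.44, adjusted p = 0.0261). Of its 4 other probe sets, all at or under 47.8 on every array, none repeated a difference of that size (-1.87 to -0.10). CDX4, a caudal-type homeobox factor that acts upstream of Hox genes, read 3, 2.7, 10.2 and 1.9 in the cultured arrays against 158, 661, 1069 and 1232 in the fresh arrays, and fell by 7.43 on the log2 scale (standard error 0.67, adjusted p = 0.0227). With 32 added the difference was -4.17. It was close to absent from the cultured readings and higher in lateral than in otic ectoderm.

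In the list of Hox and posterior patterning genes 22 of 31 were measured. HOXB1 and CDX4 were its 2 calls, both lower, and the arms were apart for 5 members in the lower direction and 1 in the higher (NR2F2), with a median difference of -1.09. HOXA3, a gene of the caudal hindbrain and pharyngeal arches, had 14.5, 24.2, 55.1 and 3.4 in cultured ectoderm and 237, 978, 1202 and 497 in fresh ectoderm (-5.25, adjusted p = 0.0912). HOXB3 had 18.7, 11.4, 41.5 and 23.3 in cultured and 43.7, 212, 419 and 329 in fresh ectoderm (-3.15, adjusted p = 0.0813), and HOXA4 had 27.9, 6, 21.2 and 16.8 and 34.3, 76.7, 164 and 127 (-2.46, adjusted p = 0.137). None of these 3 passed the test, and in HOXB3 and HOXA4 the nearest fresh array is otic replicate 1. NR2F2, an orphan nuclear receptor, gave 1344, 1611, 1142 and 1845 in cultured ectoderm and 247, 1019.5, 157 and 249 in fresh ectoderm (2.21, adjusted p = 0.141). Its separation rests on a narrow step to otic replicate 2. Otherwise most members overlapped, many of them near the array middle in both arms.

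**Figure D2:**
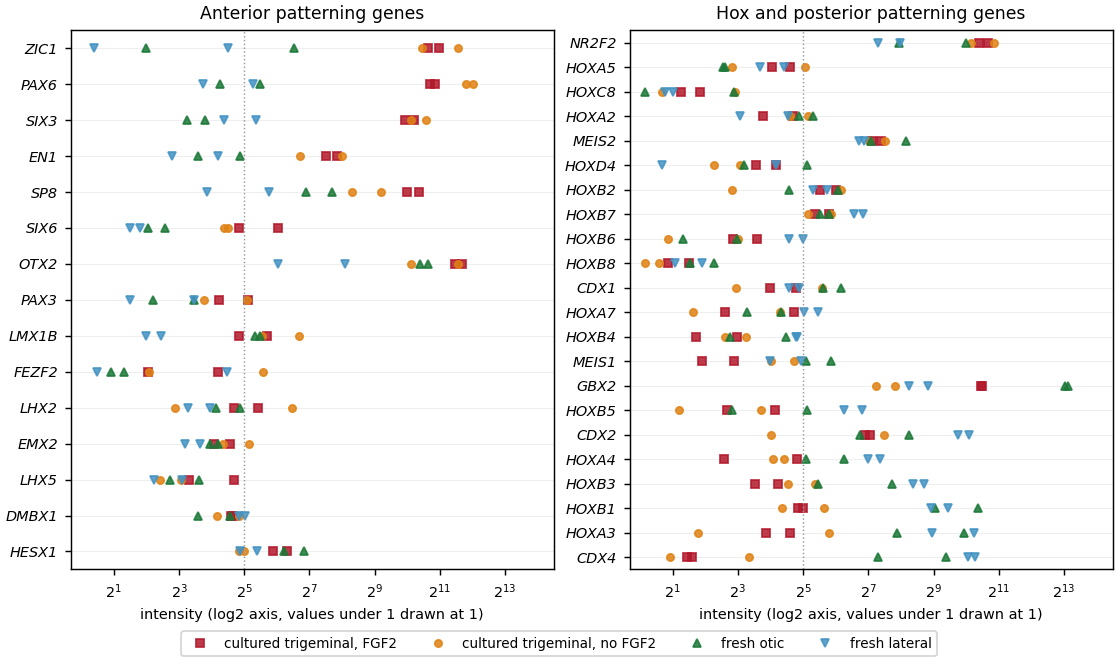
Intensity of each measured member of the anterior list (left) and of the Hox and posterior list (right) on each of the 8 arrays, on a log2 axis, sorted by the log2 difference; the dotted line stands at 32. PAX6, SIX3, ZIC1 and EN1 show all cultured arrays to the right of all fresh arrays, and CDX4, HOXA3 and HOXB1 show all of them to the left.

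A few genes expressed in the lens and the nose rose too, while most of the lens list overlapped between arms. ASL1, which encodes the delta-crystallin of the bird lens, had 327, 1779, 973 and 286 in cultured ectoderm against 16.3, 8.2, 6.4 and 2.9 in fresh ectoderm, a difference of 6.49 (standard error 0.71, adjusted p = 0.0327). Its cultured arrays varied widely among themselves but none came near a fresh array. GNRH1, the gonadotropin releasing hormone, whose neurons are born in the olfactory placode, read 250.3, 199, 312 and 327 against 4.7, 23.3, 2.7 and 2.2, with a difference of 5.72 (standard error 0.52, adjusted p = 0.0227). BFSP2, a filament protein of lens fibres, read 536, 408, 209 and 397 in cultured and 44.2, 79.4, 17.6 and 12.4 in fresh ectoderm (difference 3.63, standard error 0.36, adjusted p = 0.0263). In the lens list 2 of 18 measured genes rose, ASL1 and BFSP2, 0 fell, 6 were apart upwards and 0 downwards, and the median difference was 0.65. Summed over the list, intensities ran over 1807 to 3168 in the cultured arrays and 347 to 726 in the fresh arrays. ASL1 and BFSP2 are members and add to these sums, which therefore say nothing separate about them. CRYBA4, a beta-crystallin (375 to 494 in cultured and 5.8 to 162 in fresh ectoderm, adjusted p = 0.0766), and PROX1, a homeobox factor of lens fibres (94.6 to 169 and 2.3 to 63.1, adjusted p = 0.126), were apart without passing.

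Some further genes of the eye were named after their values had been seen. MAB21L1, a gene needed for the eye, stood at 124, 255, 1427 and 587 in cultured and 3.1, 1.2, 4.1 and 2.1 in fresh ectoderm, a difference of 7.40 (standard error 0.52, adjusted p = 0.0154), and the fresh arrays were at the bottom of the scale throughout. NR2E1, an orphan nuclear receptor of forebrain and retina, stood at 250.1, 142, 86.1 and 675 and 2.9, 1.5, 1.7 and 1.3 (difference 6.92, standard error 0.68, adjusted p = 0.0263). OPTC, a small proteoglycan of the eye, stood at 186, 166, 143 and 402 and 12.8, 11, 22.6 and 15.6 (difference 3.78, standard error 0.39, adjusted p = 0.0301), and HMX1, a homeobox factor of eye and ear, at 347, 472, 988 and 783 and 74.2, 54.9, 44.3 and 30.1 (difference 3.63, standard error 0.28, adjusted p = 0.0162). Each of these 4 rose with no overlap. With 32 added to every value the differences were 3.69 for MAB21L1, 2.90 for NR2E1, 2.34 for OPTC and 2.96 for HMX1, smaller most of all where the fresh arrays were darkest. SOHO1, a related sensory organ homeobox gene listed with the otic placode, had 1818, 2202, 3410.1 and 3247 in cultured ectoderm against 107, 339.8, 3.3 and 18.8 in fresh ectoderm (difference 6.06, standard error 0.64, adjusted p = 0.0313). All cultured arrays exceeded both otic arrays, and the otic arrays in turn exceeded the lateral arrays.

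Enzymes of retinoic acid metabolism moved in both directions. ALDH1A3, the retinaldehyde dehydrogenase of the rostral head, had 6401, 6598, 1184 and 1513 in cultured ectoderm against 56.8, 55.5, 47.3 and 54.6 in fresh ectoderm. The fresh values were tightly grouped, the FGF2-treated cultures were above the untreated ones, and the difference of 5.79 (standard error 0.23, adjusted p = 0.00611) had the smallest adjusted p of all probe sets. ALDH1A2, the dehydrogenase of the trunk and paraxial mesoderm, had the opposite pattern, 36.4, 41.5, 64.6 and 28.7 against 381, 668, 549 and 511, a difference of -3.66 (standard error 0.36, adjusted p = 0.0263). Its second bright probe set fell as well, with a difference of -3.09 (adjusted p = 0.0481). DHRS3, which reduces retinaldehyde back to retinol, read 104, 62.1, 138 and 84.2 in cultured against 1387, 1835, 734 and 623 in fresh ectoderm, a difference of -3.48 (standard error 0.32, adjusted p = 0.0227). CRABP1, a cytoplasmic carrier of retinoic acid, read 145, 160.3, 168 and 322 and 19, 21, 13.3 and 7.3 and rose by 3.75 (standard error 0.34, adjusted p = 0.0227). Thus 2 of 20 measured members rose and 2 fell, 4 and 4 were apart in the higher and lower direction, and the list's median of -0.22 hides both. NRIP1, a nuclear receptor corepressor, (1366 to 2309 in cultured and 273 to 786 in fresh ectoderm, adjusted p = 0.0906) and the retinoid receptor RXRG (57.6 to 133 and 14.9 to 39.5, adjusted p = 0.109) were apart upwards without passing.

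Genes of the neural border, neural crest and neural tube were higher in several cases. SOX10, a factor of neural crest and otic placode, had 1395, 1228, 1909.6 and 3131 in cultured ectoderm against 50.5, 117, 11.1 and 22.4 in fresh ectoderm (difference 5.68, standard error 0.41, adjusted p = 0.0158). TFAP2B, an AP-2 factor of crest and ectoderm, had 1410.5, 1532, 949 and 1319.8 against 69.8, 90.9, 32.8 and 35.1 (difference 4.62, standard error 0.25, adjusted p = 0.00697). In both genes the otic arrays exceeded the lateral ones and stayed well below the cultures. Of 20 measured crest genes 2 rose (SOX10 and TFAP2B), 1 fell, 6 were apart upwards and 2 downwards, and the median was 0.48. The gene that fell was EDNRB, an endothelin receptor, at 27.3, 25.5, 42.8 and 69.3 in cultured against 96.2, 95.1, 662 and 598 in fresh ectoderm (difference -2.69, standard error 0.26, adjusted p = 0.0261), with lateral arrays far above otic arrays. FOXD3 and PAX7, factors of early crest, ran over 90.5 to 289 in cultured and 1.8 to 19.4 in fresh ectoderm (adjusted p = 0.103) and over 42.5 to 139 and 2.9 to 18.9 (adjusted p = 0.0615). SNAI2, another factor of early crest, overlapped, at 364 to 557 in cultured and 189 to 768 in fresh ectoderm. Crest markers therefore did not all move together.

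In the neural tube list, 2 of 17 measured genes rose, 0 fell and 8 were apart upwards, with a median of 1.35. The genes that rose were PAX6 and HES5, a Notch target of neural progenitors with 706, 530.3, 151 and 448 in cultured and 60.3, 46.4, 7 and 12.6 in fresh ectoderm (difference 4.16, standard error 0.43, adjusted p = 0.0311). FABP7, a fatty acid binding protein of glial progenitors, gave 3984, 5382, 2949 and 4602 and 1184, 997, 968 and 1032 (1.99, adjusted p = 0.0512) and CDH2, N-cadherin, 2826, 3108, 2509 and 2605 and 1061, 1576, 884 and 913 (1.35, adjusted p = 0.0912). The defining neural marker SOX2 read 42.9 to 99.7 in cultured and 3.5 to 39.3 in fresh ectoderm in the probe set that the platform annotation gives it, a difference of 1.82 (adjusted p = 0.295) with arms barely apart. A far brighter probe set, named SOX2 by the study and without a symbol in that annotation, had 4150.0, 3393, 1288 and 3003 in cultured ectoderm and 346, 721, 6.9 and 105 in fresh ectoderm (4.55, adjusted p = 0.0998). It too was apart upwards without passing, and it is not counted in the list. SOX1, another neural marker, was dim and overlapped, at 14.6 to 33 and 9.6 to 16.9. Summed neural tube intensities ran over 15457 to 20595 in the cultured arrays and 3757 to 10877 in the fresh arrays, so the sum of the list moved with the arms. PAX6 is itself a member and adds to that sum, so the sum says nothing separate about PAX6. The part of neural tissue in the result for SOX10 was not tested. Among 25 measured genes of the trigeminal placode and of sensory neurons 0 were called and 6 were apart upwards (12 higher and 0 lower at an unadjusted p under 0.05), among them NEFM, a neurofilament (2086, 1709, 1155 and 2732 in cultured and 258, 607, 89.1 and 179 in fresh ectoderm, 3.03, adjusted p = 0.0617), and ELAVL4, a neuronal RNA-binding protein (59.4 to 141 and 8.6 to 32.2, adjusted p = 0.0637). Beside these counts, 5.01% of all genes were apart upwards. Of all 38439 probe sets, 2392 were higher and 2308 lower at an unadjusted p under 0.05. The trigeminal label could not be read off its own markers. PAX3, which defines the ophthalmic trigeminal placode, gave 13.7 to 34.4 in cultured and 2.8 to 11.1 in fresh ectoderm. NEUROG1, a sensory neuron determinant, gave 12.7 to 83.5 and 1 to 18. EYA2, also taken as a marker, was brighter but overlapped, at 116 to 757 and 67.8 to 599.5, with the otic arrays above the lateral ones.

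**Figure D3:**
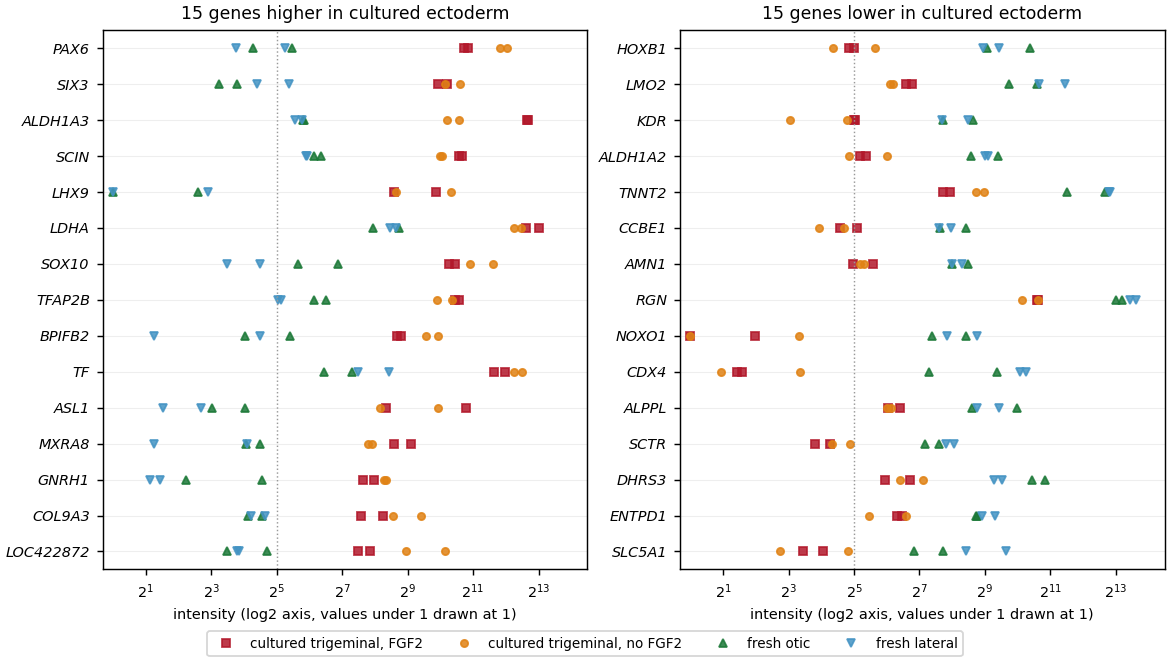
Intensity on each of the 8 arrays, on a log2 axis, of the 15 genes per direction with the widest gap between arms among those with an adjusted p under 0.05 and arms that do not overlap, widest at the top; the dotted line stands at 32, and lower values were counted as 32 for the gap. In the left panel the 4 cultured arrays lie to the right of the 4 fresh arrays for every gene, from PAX6 with the nearest arrays 37.7-fold apart to LOC422872 with 5.59-fold, and in the right panel to the left, from HOXB1 with 9.89-fold to SLC5A1 with 3.56-fold.

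Among the other genes of widest gap in the higher direction, LDHA, the lactate dehydrogenase subunit of glycolytic tissues, was the brightest, with 8303, 6265, 5672 and 4837 in cultured ectoderm against 244, 428, 404 and 352 in fresh ectoderm (difference 4.14, standard error 0.29, adjusted p = 0.0154). SCIN, a calcium-dependent actin-severing protein, had 1504, 1631, 1052 and 1008 against 70.5, 81, 61 and 59 (difference 4.24, standard error 0.22, adjusted p = 0.00697), and each arm was tight. TF, transferrin, had 3180.2, 4055, 5721 and 4838 in cultured and 87.4, 157, 344 and 179 in fresh ectoderm (difference 4.67, standard error 0.34, adjusted p = 0.0158). Of its 3 other probe sets, another bright one rose by 4.58 (adjusted p = 0.0173), whereas one at 2137 to 3011 in cultured and 2584 to 3357 in fresh ectoderm differed by -0.20 (adjusted p = 0.8), so the probe sets named TF disagree. COL9A3, a chain of cartilage and eye collagen IX, had 306, 191, 375 and 685 in cultured and 23.2, 17.3, 18.5 and 25 in fresh ectoderm (difference 4.08, standard error 0.33, adjusted p = 0.0173). A second COL9A3 probe set was apart in the same direction, and the other 2 were dim on all arrays. BPIFB2, of the lipid-binding BPI fold family, (5.43), MXRA8, a cell surface protein, (4.86) and LOC422872 (4.65) were in the fresh arrays at or below 42.6, 22.5 and 26.3.

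Glycolysis as a whole did not follow LDHA. In the glycolysis and hypoxia list 2 of 31 measured genes rose, 0 fell, 4 were apart upwards and 1 downwards, and the median was 0.13. Of all genes, 0.507% were called higher, and 5.01% and 4.94% were apart upwards and downwards. The other gene that rose was PFKFB3, which makes the allosteric activator of phosphofructokinase, with 914, 1147, 544 and 349 in cultured against 247, 159.6, 41.5 and 35.2 in fresh ectoderm (difference 2.94, standard error 0.29, adjusted p = 0.0275). P4HA1, a collagen prolyl hydroxylase, gave 1668 to 2386 and 708 to 1116 (adjusted p = 0.125). ADM, adrenomedullin, a vasoactive peptide and hypoxia target, ran the other way, with 270.2, 288, 218 and 34.3 in cultured and 642, 800.3, 1668 and 2959 in fresh ectoderm (-3.02, adjusted p = 0.106). These 2 genes were thus apart in opposite directions, and neither passed the test.

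Genes often tied to stress, wounding and culture gave few calls. Few are expected in any list of this size, since 0.507% of all genes were called higher and 0.331% lower. CDKN2B, an inhibitor of the cell cycle, read 213, 212, 56.2 and 24.5 in cultured and 6.5, 11.4, 9.8 and 2.9 in fresh ectoderm (difference 3.71, standard error 0.50, adjusted p = 0.0494), with the FGF2-treated arrays highest. It was the only call among 27 genes of p53, arrest and cell death, of which 7 were apart upwards and 2 downwards (median 0.41). Beside these counts, 5.01% of all genes were apart upwards and 4.94% downwards. CDKN1A, the p53 target p21, had 641, 576, 299 and 228 in cultured and 114, 69.3, 7.3 and 86.7 in fresh ectoderm (3.08, adjusted p = 0.171), and MDM2, the ubiquitin ligase that degrades p53, ran over 218 to 267 and 64.1 to 168 (adjusted p = 0.219). IL8L2, an interleukin-8-like chemokine, read 139, 66.8, 88.6 and 21.3 against 2, 2.4, 2.6 and 1.9 (difference 4.87, standard error 0.52, adjusted p = 0.0323, and 1.58 with 32 added). It was the only call among 38 genes of interferon and inflammation, of which 5 were apart upwards and 2 downwards (median 0.30). The chemokine CXCL12 in that list had the opposite pattern, 565, 295, 300.4 and 731 in cultured and 2706, 4935, 3878 and 2789.7 in fresh ectoderm (-2.99, adjusted p = 0.0552). SOCS2, a feedback inhibitor of cytokine signalling, gave 686 to 2756 and 292 to 421 (adjusted p = 0.0526), and PTGS2, a prostaglandin synthase, 288 to 678 and 95 to 248 (adjusted p = 0.125).

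In the wound, actin and serum response list 1 of 40 measured genes rose, 1 fell, 8 were apart upwards and 2 downwards (median 0.11). Beside these counts, 5.01% and 4.94% of all genes were apart upwards and downwards. CD44, the hyaluronan receptor, rose, with 53.6, 49.3, 41.7 and 42.6 in cultured and 8.6, 8.2, 18.7 and 19.9 in fresh ectoderm (difference 1.87, standard error 0.22, adjusted p = 0.0406), and ACTA2, smooth muscle actin, fell, with 3.9, 1.6, 0.9 and 3.8 and 18.2, 59.9, 79.7 and 126 (difference -4.70, standard error 0.63, adjusted p = 0.0485, and -1.46 with 32 added). HBEGF, a growth factor of wound edges, gave 166, 112, 125 and 99.1 and 32.3, 33.3, 29.4 and 41.9 (1.86, adjusted p = 0.0582). Of the immediate early genes 18 were measured and 0 were called (3 higher and 2 lower at an unadjusted p under 0.05), 2 being apart upwards and 1 downwards (median 0.08), and JUN itself overlapped at 976 to 1484 in cultured and 658 to 2217 in fresh ectoderm. Of 22 heat shock genes 0 were called (2 higher and 0 lower at an unadjusted p under 0.05, median 0.15), and the bright chaperone HSPA8 read 11017 to 14018 and 8842 to 13835. Among 32 genes of amino acid response and unfolded proteins 0 were called (1 higher and 2 lower at an unadjusted p under 0.05, median -0.13). There STC2, a secreted glycoprotein of the stress response (58.7 to 266 in cultured and 5.3 to 39.8 in fresh ectoderm, adjusted p = 0.0807), and the amino acid carrier SLC7A5 (272 to 435 and 516 to 1017, adjusted p = 0.124) were apart in opposite directions. Iron, selenium and insulin genes, chosen since defined media often supply transferrin, selenium and insulin, gave 0 calls among 43 (4 higher and 3 lower at an unadjusted p under 0.05, median 0.11). The transferrin receptor TFRC among them read 3938, 4937, 2933 and 3841 in cultured and 1314, 1234, 695 and 1054 in fresh ectoderm (1.88, adjusted p = 0.0545), apart but short of the threshold.

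General cellular machinery gave no calls. With 0.507% of all genes called higher and 0.331% lower, 0 calls in lists of this size lies near the share over all genes. All 59 measured cytoplasmic ribosomal protein genes overlapped between arms, with 0 higher and 0 lower at an unadjusted p under 0.05, a median of 0.12 and single differences from -0.33 to 0.53, and of 40 genes of the mitochondrial respiratory chain 1 was apart, with 0 higher and 0 lower at an unadjusted p under 0.05 and a median of -0.01. Cell cycle and DNA replication genes gave 0 calls among 47 (1 higher and 1 lower at an unadjusted p under 0.05) and a median of -0.07. Of these 1 was apart upwards and 2 downwards, beside 5.01% and 4.94% of all genes. Those apart included the replication factor GINS1, at 453 to 778 in cultured and 832 to 1319 in fresh ectoderm (adjusted p = 0.201), and CCND2, a D-type cyclin, at 3059 to 3136 and 1365 to 2611 (adjusted p = 0.239). Of 27 genes of cholesterol synthesis 3 were apart upwards and 0 were called (3 higher and 0 lower at an unadjusted p under 0.05, median 0.37).

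Markers of surface ectoderm stood above the array middle in both arms. Among surface ectoderm markers EPCAM, an epithelial adhesion molecule, read 8326 to 10915 in cultured and 9207 to 11290.3 in fresh ectoderm, E-cadherin (CDH1) 1421 to 2495 and 1119 to 2479, the AP-2 factor TFAP2A 190.5 to 265 and 127 to 265, and the homeobox factor DLX5 2962 to 3814 and 2409.7 to 3162. All 4 overlapped. KRT18 and KRT19 were not analysed here. Of 29 measured genes of epidermis and surface ectoderm 1 rose, TFAP2B, and 0 fell (median 0.09). PKP2, a desmosomal plaque protein of epithelia and heart, was apart downwards at 222, 229, 432 and 262 in cultured and 646, 1842, 2748 and 2447 in fresh ectoderm (-2.61, adjusted p = 0.063). The 16 measured preplacodal and pan-placodal genes gave 0 calls and no separation (2 higher and 1 lower at an unadjusted p under 0.05, median 0.37). Of 21 otic placode genes 2 rose, SOHO1 and SOX10, and the remainder included PAX2, highest in the otic arrays (137 to 355) against 14 to 121 in the cultured and 17.4 to 17.5 in the lateral arrays. FOXI2, a forkhead factor of cranial ectoderm, gave 739.8, 1691, 315 and 232 in cultured and 50.9, 204, 34.7 and 26.7 in fresh ectoderm (3.30, adjusted p = 0.0669).

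Some genes of tissues that lie beneath the ectoderm fell, most of them from the list of endothelium and blood. LMO2, a transcriptional cofactor of blood and vessel precursors, had 96.5, 110.3, 68.8 and 73.8 in cultured ectoderm against 1548, 858, 1625 and 2804 in fresh ectoderm (difference -4.19, standard error 0.32, adjusted p = 0.0162), and its other probe set fell too. KDR, the receptor for vascular endothelial growth factor, had 32.4, 32.3, 27.7 and 8.2 against 210.5, 399, 207 and 356 (difference -3.67, standard error 0.48, adjusted p = 0.047). Both are genes of widest gap, for which arms that do not overlap were required. The other 4 KDR probe sets were dim, and of these one stood higher in the cultured arm by 1.33 without passing. CDH5, the cadherin of endothelium, read 102, 59.6, 29.2 and 19.4 in cultured and 143, 607, 1114 and 1273 in fresh ectoderm (difference -3.78, standard error 0.51, adjusted p = 0.0491), the Ets factor FLI1 103, 113, 45.4 and 67 and 208, 318, 539 and 550.1 (difference -2.28, standard error 0.28, adjusted p = 0.0421), and TAL1, the blood and endothelial helix-loop-helix factor, 58.2, 43.9, 16.5 and 25.3 and 108, 192, 234 and 188 (difference -2.43, standard error 0.32, adjusted p = 0.0473). In CDH5 and FLI1 the otic arrays fell between the lateral and the cultured arrays, and in all 3 the FGF2-treated cultures exceeded the untreated ones.

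The endothelium and blood list thus had 5 of 24 measured genes lower and 0 higher, 10 apart downwards and 0 upwards, and the lowest list median, -1.51. Of all genes, 0.331% were called lower and 4.94% were apart downwards. Summed intensities ran over 1544 to 2828 in the cultured arrays and 4732 to 13768 in the fresh arrays. The 5 genes called lower add to these sums, which are not separate from them. The vascular receptor FLT1 (33.9, 39.4, 29.9 and 0.6 in cultured and 74.7, 99.1, 620.1 and 311 in fresh ectoderm) and the SOX factors SOX17 (41.7 to 224 and 470.5 to 618) and SOX18 (24.2 to 44.6 and 56.9 to 229.7) were apart without passing (adjusted p = 0.206, 0.149 and 0.126). Other members overlapped, among them VWF (32.8 to 59.8 in cultured and 20.0 to 138 in fresh ectoderm), ESAM (140.7 to 170.5 and 102.8 to 218.5) and ETS1 (558.9 to 750.3 and 373.5 to 683.9). PECAM1 was dim and overlapped, with a mean higher in culture by 1.03 (adjusted p = 0.561). The embryonic globins overlapped between arms. HBE, the brightest of them, read 84.3 to 174 in cultured and 89.6 to 453 in fresh ectoderm, HBAD 8.2 to 43.1 and 18.3 to 136, HBZ 12.3 to 32.3 and 23.7 to 109, and HBA1 20.0 to 30.8 and 18.3 to 94. In all 4 the highest array was lateral replicate 2. In pools of this kind, fewer cells of a type and less RNA per cell cannot be told apart.

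Among heart and mesoderm genes 1 was called, and most overlapped between arms. TNNT2, cardiac troponin T, had 246, 209, 420.5 and 497 in cultured ectoderm against 2899, 6482, 7222 and 7039 in fresh ectoderm (difference -4.11, standard error 0.33, adjusted p = 0.0163), and the otic as well as the lateral arrays stood above all cultures. It was the only call among 32 measured genes of heart field and paraxial mesoderm, 9 of which were apart downwards and 1 upwards (median -0.82). Of all genes, 4.94% were apart downwards and 5.01% upwards. Sums ran over 4676 to 5680 in the cultured arrays and 10988 to 23490 in the fresh arrays. TNNT2 and another bright troponin gene, TNNC1 (1854 to 2458 in cultured and 3422 to 5262 in fresh ectoderm), make up much of these sums. GATA5, a zinc finger factor of heart and endoderm, gave 191, 175, 507 and 29.5 in cultured and 1489.9, 4285, 2247 and 2108 in fresh ectoderm (-3.97, adjusted p = 0.14), GATA6 50.5, 56.4, 103 and 5.8 and 188, 499, 569 and 355 (-3.36, adjusted p = 0.205) and HAND2, a factor of heart and arch mesenchyme, 26.6, 32.1, 30.7 and 2 and 43.2, 141, 316 and 429.8 (-3.49, adjusted p = 0.181). Untreated replicate 2 was the lowest array in all 3. PRRX1, a factor of head mesenchyme, was apart downwards (120.3 to 311 in cultured and 368 to 1593 in fresh ectoderm, adjusted p = 0.152) and its relative PRRX2 upwards (40.1 to 97 and 9.5 to 23.6, adjusted p = 0.0803). TWIST1 and NKX2-5, markers of head mesenchyme and heart, overlapped, at 174 to 679 in cultured and 159.8 to 334 in fresh ectoderm and at 44.2 to 162 and 93.1 to 459.5. The markers TBX5, TBX6 and MEOX1 overlapped too (-1.71, -1.43 and -0.38, adjusted p = 0.341, 0.557 and 0.787).

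Of 23 measured endoderm and yolk genes 0 were called (1 higher and 11 lower at an unadjusted p under 0.05), and 6 were apart downwards and 0 upwards (median -0.83), with sums over 3340 to 5617 in the cultured arrays and 8003 to 18258 in the fresh arrays. Among all 38439 probe sets, 2392 were higher and 2308 lower at that unadjusted threshold. TF is a member of this list, counted by its probe set that differed by -0.20. That probe set, at 2137 to 3011 in cultured ectoderm, makes up much of the cultured sums. Other TF probe sets rose by 4.67 and 4.58 with arms apart (adjusted p = 0.0158 and 0.0173). The absence of higher calls and the sums thus depend on which TF probe set is taken. APOA1, an apolipoprotein, had 307, 269, 341 and 202 in cultured and 621, 1025, 2730.4 and 1661 in fresh ectoderm (-2.25, adjusted p = 0.0597), FGB, a fibrinogen chain, 314, 195, 444 and 20.2 and 1083, 1494, 3508 and 2253 (-3.63, adjusted p = 0.186), and HHEX, a homeobox factor of foregut and endothelium, 252, 360.2, 284 and 85.3 and 564, 1276, 1919 and 1155 (-2.38, adjusted p = 0.124). TTR, transthyretin, overlapped through untreated replicate 1, at 296, 280.2, 612 and 51.6 and 453, 1774, 4392 and 2221. The lateral arrays were highest in APOA1, FGB and TTR. Whether these neighbouring tissues contributed to other genes that fell was not tested.

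**Figure D4:**
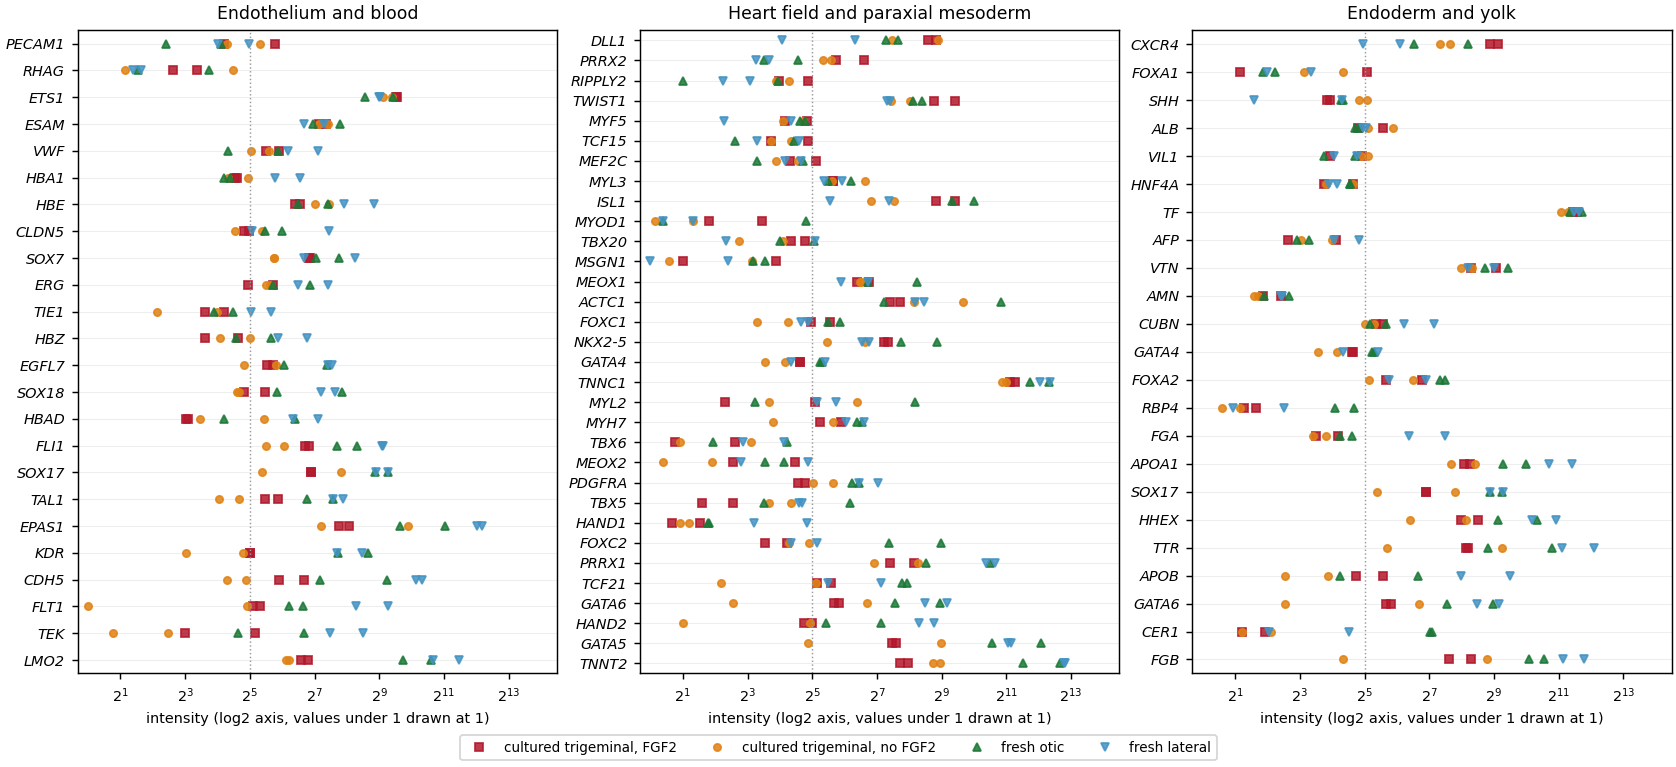
Intensity on each of the 8 arrays, on a log2 axis, of every measured member of the endothelium and blood, the heart field and paraxial mesoderm, and the endoderm and yolk lists, in the brightest probe set of each gene, sorted by the log2 difference; the dotted line stands at 32. Towards the foot of each panel most genes have the fresh arrays to the right of the cultured arrays, and above them most genes overlap.

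The other genes of widest gap in the lower direction had varied roles. RGN, the calcium-binding protein regucalcin, was the brightest, with 1568, 1537, 1561 and 1134 in cultured ectoderm against 9426, 8196, 10988 and 12495 in fresh ectoderm (difference -2.82, standard error 0.24, adjusted p = 0.0202). ENTPD1, an ectonucleotidase of endothelium and immune cells, had 79.7, 89.3, 95.5 and 44.1 against 430.5, 421, 476 and 634 (difference -2.71, standard error 0.32, adjusted p = 0.0409), and its 4 other probe sets also had lower means in culture. CCBE1, a secreted factor of lymphatic growth, had 23.9, 33.9, 15.3 and 26 against 198, 346, 196 and 249.7 (difference -3.34, standard error 0.33, adjusted p = 0.0275). All 3 were picked, like the other genes of this set, on condition that their arms did not overlap. NOXO1, an organizer of an NADPH oxidase, (-6.78), SCTR, the secretin receptor, (-3.34), SLC5A1, the sodium-dependent glucose transporter of gut and kidney, (-4.38), ALPPL, an alkaline phosphatase, (-3.05) and AMN1 (-2.93) completed the set. NOXO1 was close to absent in culture (0.6 to 10.0, against 166 to 433 in fresh ectoderm), and its difference was -3.11 with 32 added, whereas ALPPL kept 64.1 to 84 in culture against 388 to 1007 in fresh ectoderm. Of the other ALPPL probe sets one fell by 5.59 on the log2 scale (adjusted p = 0.0173) and another stood higher in culture by 1.07 without passing, and SLC5A1 fell in a second probe set.

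The Wnt, BMP, FGF and Notch lists gave at most 1 call each. Over all genes, 0.507% were called higher and 0.331% lower, and 5.01% and 4.94% were apart upwards and downwards. With the prior variance allowed to follow the intensity, 4 Wnt genes were higher and 5 lower. With that prior 0 and 4 BMP and TGF-beta genes, 1 and 2 FGF genes, and 3 and 0 Notch genes were higher and lower. The same prior called 1.35% of all probe sets higher and 1.11% lower. FZD5, a Wnt receptor of the eye field, read 1655, 899, 336 and 330.3 in cultured ectoderm against 53.8, 70.4, 38.3 and 66.2 in fresh ectoderm (difference 3.52, standard error 0.33, adjusted p = 0.0248), with the FGF2-treated cultures highest. It was the only call of 46 measured Wnt genes, where 4 were apart upwards and 7 downwards (median -0.01). The Wnt antagonist SFRP2 was among those apart upwards (3682 to 5326 in cultured and 1252 to 3017 in fresh ectoderm, adjusted p = 0.0998), and the ligands WNT5A (303 to 676 and 1147 to 1608, adjusted p = 0.0802) and WNT11 (41.8 to 52.2 and 75.8 to 622, adjusted p = 0.0712) and the antagonist NOTUM (111 to 233 and 286 to 905, adjusted p = 0.12) downwards. BMP5, a ligand of the bone morphogenetic protein family, fell, with 112, 211, 91.2 and 91.4 in cultured and 426, 1038, 991 and 1137 in fresh ectoderm (difference -2.83, standard error 0.39, adjusted p = 0.0498). It was the only call among 42 genes of BMP and TGF-beta signalling, 5 of which were apart downwards and 0 upwards. SMAD6, an inhibitory SMAD that BMP signals induce, was among these (918 to 1695 in cultured and 2502 to 5034 in fresh ectoderm, adjusted p = 0.131). Of 32 FGF pathway genes 0 were called (5 higher and 4 lower at an unadjusted p under 0.05) and the median was 0.10. FGFR3, a receptor, had means that differed by -1.53 (adjusted p = 0.121) with arms that overlapped (442 to 1141 in cultured and 1066 to 3314 in fresh ectoderm). Notch genes gave 1 call, HES5, of 19 (median 0.13).

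The lists of matrix and junction genes likewise gave 1 call each at most. COL9A3 and OPTC, given above among the genes that rose, are not in the matrix list, whose highest difference was 3.43. With the prior variance allowed to follow the intensity, 4 matrix genes were higher and 3 lower. In the junction list 1 was higher and 3 lower with that prior, which called 1.35% of all probe sets higher and 1.11% lower. FBN2, a fibrillin of elastic microfibrils, fell, with 50.6, 76.8, 100.4 and 152 in cultured and 302, 544, 1149.9 and 1314 in fresh ectoderm (difference -3.01, standard error 0.33, adjusted p = 0.0327), the only call of 51 measured matrix genes, of which 7 were apart upwards and 3 downwards (median -0.07). FN1, fibronectin, was apart downwards at 5592, 5178, 6132 and 3088 and 12429.8, 10922, 10505 and 14070.2 (-1.30, adjusted p = 0.155), as was POSTN, periostin (19.4 to 71.5 in cultured and 93.9 to 618 in fresh ectoderm, adjusted p = 0.113). DCN, the proteoglycan decorin, was apart upwards at 823, 1162, 1034 and 1121 and 30.8, 282, 88.7 and 107 (3.43, adjusted p = 0.106), as were the collagens COL2A1 (913 to 1308 in cultured and 296 to 711 in fresh ectoderm, adjusted p = 0.167), COL11A1 (85.7 to 141 and 34.6 to 62.2, adjusted p = 0.2) and COL14A1 (816 to 1364 and 390.0 to 679, adjusted p = 0.187). Matrix proteases and their inhibitors gave 0 calls of 26 (3 higher and 2 lower at an unadjusted p under 0.05). Cadherins and junctions gave 1 call of 41, CDH5, and 3 were apart upwards and 4 downwards.

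**Figure D5:**
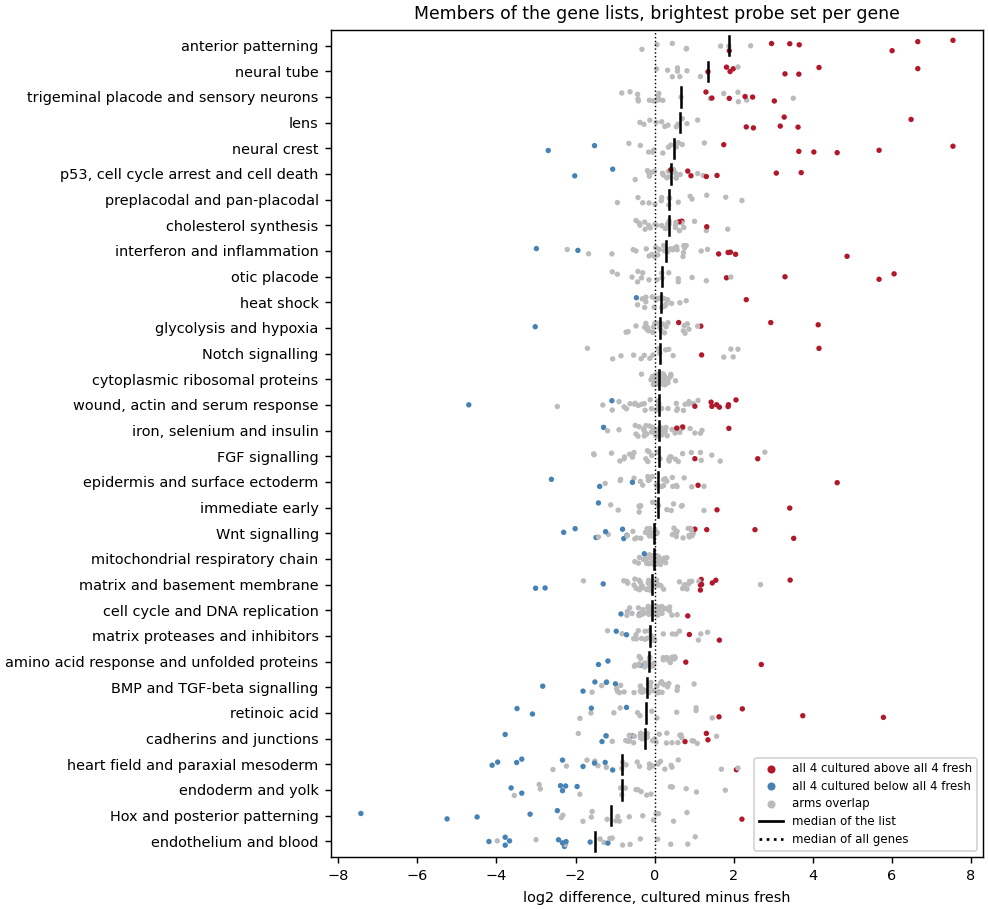
Log2 difference, cultured minus fresh, of each member of the 32 gene lists in its brightest probe set, with a bar at the median of each list and a dotted line at the median of all genes; red and blue members have all 4 cultured arrays above or below all 4 fresh arrays. Anterior patterning (median 1.89) and neural tube (1.35) stand at the top, endothelium and blood (-1.51) and Hox genes (-1.09) at the foot, and ribosomal and respiratory chain genes lie close to 0.

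Within an arm, the genes apart between arms still varied. Of the 88 genes whose nearest arrays stood at least 2-fold apart in the higher direction, 15 differed over 2-fold between FGF2-treated and untreated cultures and 26 between otic and lateral ectoderm. Of the 65 in the lower direction, 14 and 12 did. FGF2-treated minus untreated log2 differences were 2.28 for ALDH1A3, 2.52 for CDKN2B and 1.87 for FZD5, and -2.36 for MAB21L1, -1.87 for LOC422872 and -1.14 for PAX6. Otic minus lateral differences were 4.60 for SOHO1, 2.29 for SOX10 and -1.83 for CDX4. These are descriptions, and no test was made of them. Further probe sets of these genes, with a mean intensity of at least 32, were compared as well. For 23 of the 88 genes there were 32 further probe sets, of which 27 had the same sign and 17 were apart in the same direction, and for 24 of the 65 there were 33, of which 32 had the same sign and 27 were apart. In both directions 0 were apart the opposite way.

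The narrowest separations were small beside the spread of the arrays. RNF14, just inside the rule in the higher direction, had 938, 938, 963 and 934 in cultured and 849, 933, 724 and 846 in fresh ectoderm, whereas DENND6A, just outside, had 1701, 1994, 1404 and 1552 and 1175, 1405, 1195 and 1211. MYBBP1A, just inside in the lower direction, had 262, 259, 204 and 269.6 and 269.7, 487, 324 and 384, and NCOA4, just outside, had 2624, 2210.4, 2166 and 2147 and 2623, 3001, 3834 and 3137. The log2 difference between 3′ and 5′ control probe sets, which grows when amplified transcripts are short, was 1.20 to 1.42 in cultured and 1.02 to 1.36 in fresh ectoderm for actin and 1.06 to 1.71 and 1.69 to 2.27 for GAPDH. The GAPDH values were thus mostly higher in fresh ectoderm, with a narrow overlap, while the actin values overlapped widely. The part of transcript length in the results was not tested.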

How the data were processed

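Intensities were used as deposited. The authors hybridised the RNA to Affymetrix GeneChip Chicken Genome arrays and computed 1 linear intensity per probe set and array, and the sources used here do not say how probes were summarised or arrays scaled. The table holds 38535 probe sets, and 96 controls were left out. Of the other 38439, 27168 name 1 gene, 177 several and 11094 none. Symbols come from the platform annotation, updated by Entrez number for 26853 probe sets.

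Values under 1 were set to 1 and log2 was taken without scaling. limma 3.58.1 in R 4.3.3 (lmFit and eBayes) fitted a mean for each of the 4 groups, with 4 residual degrees of freedom, and tested the mean of both cultured groups minus that of both fresh groups, two-sided. All adjusted p-values are from this fit. They measure the spread between pools, since nothing says that pools came from separate experiments. Arrays have no read depth, and precision is limited by the 2 arrays in each group.

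Named genes are, per direction, the 15 with the widest gap between arms, values under 32 counted as 32. They were taken from genes with an adjusted p under 0.05 and arms that do not overlap. For each of 32 lists, on the brightest probe set per gene, up to 5 called members were named, or up to 2 bright ones where none was called, together with cell type markers. Genes given without a call, the second SOX2 probe set, and MAB21L1, NR2E1, OPTC and HMX1, were added after their values were seen. Members and lists were chosen with earlier results of these data known. Alternatives were quantile normalization, median centring, an offset of 32, 40% of dim probe sets left out, one mean per arm, a prior variance that follows intensity, a replicate block, other thresholds, and each array or group left out. The procedure was tested on simulated data. Figures were drawn with matplotlib 3.10.9.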

Additional observations from a re-analysis of the deposited data

Results flagged for a closer look

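In the 30 genes of widest gap, each arm of 4 arrays was searched for an array far from the other 3 by Dixon's criterion. It flagged 4 of the 60 arms examined, and chance alone flags about 5% of arms. Untreated replicate 2 stood apart in KDR, where it read 8.2 and the other cultured arrays 27.7 to 32.4, and in RGN, where it read 1133.9 and the others 1537 to 1568. Lateral replicate 2 stood apart in MXRA8, where it read 2.4 and the other fresh arrays 16.7 to 22.5. Otic replicate 1 stood apart in TNNT2, where it read 2898.7 and the other fresh arrays 6482 to 7222.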

How the results depend on the processing

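The 30 genes of widest gap kept their calls under quantile normalization, median centring, the offset of 32, removal of dim probe sets, a single mean per arm and the intensity-dependent prior. Numbers of calls changed more. Beside 120 higher and 78 lower probe sets, there were 193 and 134 after quantile normalization, 159 and 121 after median centring, 489 and 410 with the offset, 441 and 370 without dim probe sets and 519 and 426 with the intensity-dependent prior. Quantile normalization together with the offset gave 702 and 560, and together with that prior 675 and 533, 2 combinations chosen after seeing the data. At an adjusted p under 0.01, 6 and 0 were left, whereas without adjustment a p under 0.05 and a fold above 2 gave 1808 and 1679. Of the list members, 31 genes were called, against 94 without dim probe sets, 96 with the offset, 118 with the prior, 133 with quantile normalization and the offset, and 138 with quantile normalization and the prior.

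Leaving out a single array gave 0 to 18 higher and 0 to 3 lower probe sets, 0 to 9 of the 30 genes and 0 to 8 list members called. All were 0 except without otic replicate 2 and without untreated replicate 1. Without the otic group 31 and 13 probe sets, 10 of the 30 genes and 12 list members were called, and without the lateral, the FGF2-treated or the untreated group 0 of each. These fits have fewer arrays. Probe sets whose arms do not overlap numbered 1772 to 3325 higher and 1941 to 2513 lower without a single array, beside 1424 and 1490. They numbered 5562 and 3731 without the otic group, 2765 and 4613 without the lateral, 2875 and 3914 without the FGF2-treated and 4117 and 3186 without the untreated group, since fewer arrays must lie apart. Replicate numbers paired no arrays (correlations of deviations from -0.023 to 0.028), and with the replicate number as a block 9 and 1 probe sets, 6 of the 30 genes and 5 list members were called. Medians of the lists kept within the spread of their arrays in 657 of 704 alternatives. With the offset that of anterior patterning was 0.71 and that of Hox genes -0.42. Among single genes, 655 of 2264 alternatives lost a call and 269 gained one. Values under 32 lie near or below the array medians, and the size of a change into that range is uncertain.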
